A study of Homo sapiens with 6 samples.

Results

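Eukaryotic translation initiation and elongation factors are the proteins that load ribosomes onto mRNA and drive them along it. The set described here was every gene whose platform symbol starts with EIF or EEF and a digit. Kinases of the EIF2AK family, the EEF1AKMT and EEF2KMT methyltransferases, pseudogenes and antisense or divergent RNAs were left out. That gave 50 genes of 33616 tested, made up of 12 EIF3 subunits, 33 other EIF genes and 5 EEF genes. The genes were matched by name, but the set itself was chosen with earlier results of these data known. A further 9 features carry an EIF or EEF symbol together with other symbols, and their genes, EEF1B2, EEF1G, EEF2, EIF3C, EIF3CL, EIF4A1, EIF4A2, EIF4EBP3 and EIF4G2, were not analysed here. Where a gene had several features, its brightest one by mean signal was used.

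The samples were Caco-2 cells, an established human colon carcinoma line that serves as a stand-in for intestinal epithelium. Expression was read on 6 Affymetrix arrays. The labels give 3 arrays of a control group named NC, without spelling the name out, and 3 arrays of cells that overexpressed apoM, the apolipoprotein that carries sphingosine-1-phosphate. They name no treatment or time and say neither how apoM was introduced nor whether the cells are 1 clone. Separate cultures are not named for the arrays of a group, and the p-values rest on a spread between arrays that may be purely technical. The arrays read whole cultures, so a change in the make-up of the cells and a change within each cell cannot be told apart. APOM, the gene that checks the labels, was measured at a log2 signal of 5.88 ± 0.51 (SD, n = 3) over the NC arrays and 15.63 ± 0.19 over the apoM arrays. Of the intestinal epithelial markers, 9 were measured, and EPCAM, CDH1, KRT8, KRT18, CDH17, VIL1 and CDX2 lay between the 95.1 and the 99.8 percentile of the genes tested. KRT20 and APOA1 lay at the 69.8 and 58.8 percentiles, and 8 of the 9 leukocyte, fibroblast and endothelial markers lay at or below the 66.3 percentile. The exception was COL1A1, a collagen gene, at the 81.4 percentile. None of these markers passed the test between the groups. On the first principal component, which held 51.1% of the variance over genes, NC replicate 3 lay at -7.11, with the other NC arrays at -59.6 and -39.0 and the apoM overexpression arrays on its far side, from 24.3 to 41.9.

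In initiation, EIF2 bound to GTP brings the initiator tRNA to the small ribosomal subunit, EIF3 holds that subunit ready for mRNA, and the EIF4 factors recognise the cap and unwind the leader. EIF5 and EIF5B then complete the joining of the large subunit, and EEF1 and EEF2 run elongation. The supply of these factors is itself controlled: EIF4E-binding proteins withhold the cap-binding protein, and many elongation factor and EIF3 mRNAs begin with a terminal oligopyrimidine tract, a C at the first base followed by a run of C and T, through which mTOR and LARP1 govern their translation. In intestinal epithelium, which renews itself continually, growth rests on a steady supply of these factors.

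RefSeq start sites on GRCh38.p14 were matched by symbol for 40 of the 50 genes, with 53 start sites among them. EIF4EBP1, EIF3G and EIF3A were not among the 40 and took no part in the counts of tracts and motifs. The start sites below are shown because these genes carry such a tract at the first transcribed base, defined here as a C followed by at least 4 bases that are each C or T, read on the transcribed strand only. Each line gives 20 bases before the start and 20 bases from the start on, 5′ to 3′, and the capitals mark the tract.
EEF1A1 (chr6:73521013-73521052, minus strand): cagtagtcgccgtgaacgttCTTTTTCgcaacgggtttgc
EIF3D (chr22:36529147-36529186, minus strand): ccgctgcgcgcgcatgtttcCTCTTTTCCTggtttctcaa
EIF3F (chr11:7987317-7987356, plus strand): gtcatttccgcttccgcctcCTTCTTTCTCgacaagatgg
EIF3K (chr19:38619168-38619207, plus strand): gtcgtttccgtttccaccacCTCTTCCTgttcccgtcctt
EIF3M (chr11:32583811-32583850, plus strand): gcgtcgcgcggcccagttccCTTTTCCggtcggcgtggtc
EIF4B (chr12:53006436-53006475, plus strand): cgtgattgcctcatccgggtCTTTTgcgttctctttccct
EIF2A (chr3:150546767-150546806, plus strand): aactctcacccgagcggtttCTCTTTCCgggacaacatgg
EIF2D (chr1:206612446-206612485, minus strand): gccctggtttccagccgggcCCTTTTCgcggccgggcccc
EIF2S3 (chrX:24054936-24054975, plus strand): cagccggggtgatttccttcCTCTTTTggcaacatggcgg
Such a tract stood at 9 of the 53 start sites (17.0%), against 4.07% of the 35116 start sites in the whole table. These 9 genes had a median log2 change of 0.43, against 0.22 for the 31 matched genes without a tract. EIF3D, EIF3F, EIF3K and EIF3M among them belong to the EIF3 subunits, whose median was 0.46, and the 0.43 is the value of EIF3M. The changes of EEF1A1, EIF2A, EIF2D, EIF2S3 and EIF4B were 0.078, 0.55, 0.046, -0.13 and 0.15. A part of the tract separate from that of the EIF3 class was not tested. Their changes ran from -0.13 for EIF2S3 to 0.68 for EIF3D, so genes with a tract lay on both sides of 0. A match to these letters is a description and not evidence of regulation.

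With apoM, 37 of the 50 translation factor genes had a higher mean signal than in NC (62.9% of all genes tested did), mostly by small amounts, and few passed the test. A difference was tested with limma, with Benjamini-Hochberg adjustment over all 33616 genes and a threshold of 0.05. Of the 50 genes, 3 rose, EIF4EBP1, EIF4A3 and EIF3G, and none fell; over all genes tested, 1.70% rose and 0.357% fell. At an unadjusted p under 0.05, limma placed 18 genes higher and 1 lower, where the background shares were 14.3% higher and 4.85% lower. The apoM arrays lay wholly above the NC arrays in 23 of the 50 genes (46%) and wholly below in 3, against 17.3% and 7.08% of all genes tested. The median change was 0.26 on the log2 scale, beside 0.090 over all genes tested and 0.067 over the brighter protein-coding genes, those that lay above the median level of all genes, as did 48 of the 50 genes. With quantile normalization the median of the 50 was 0.16, and that of all genes 0.080. Among those brighter protein-coding genes 19.9% lay wholly higher and 11.3% wholly lower. The 2 genes below the median level were EIF5AL1 and EIF2S3L.

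**Figure D1:**
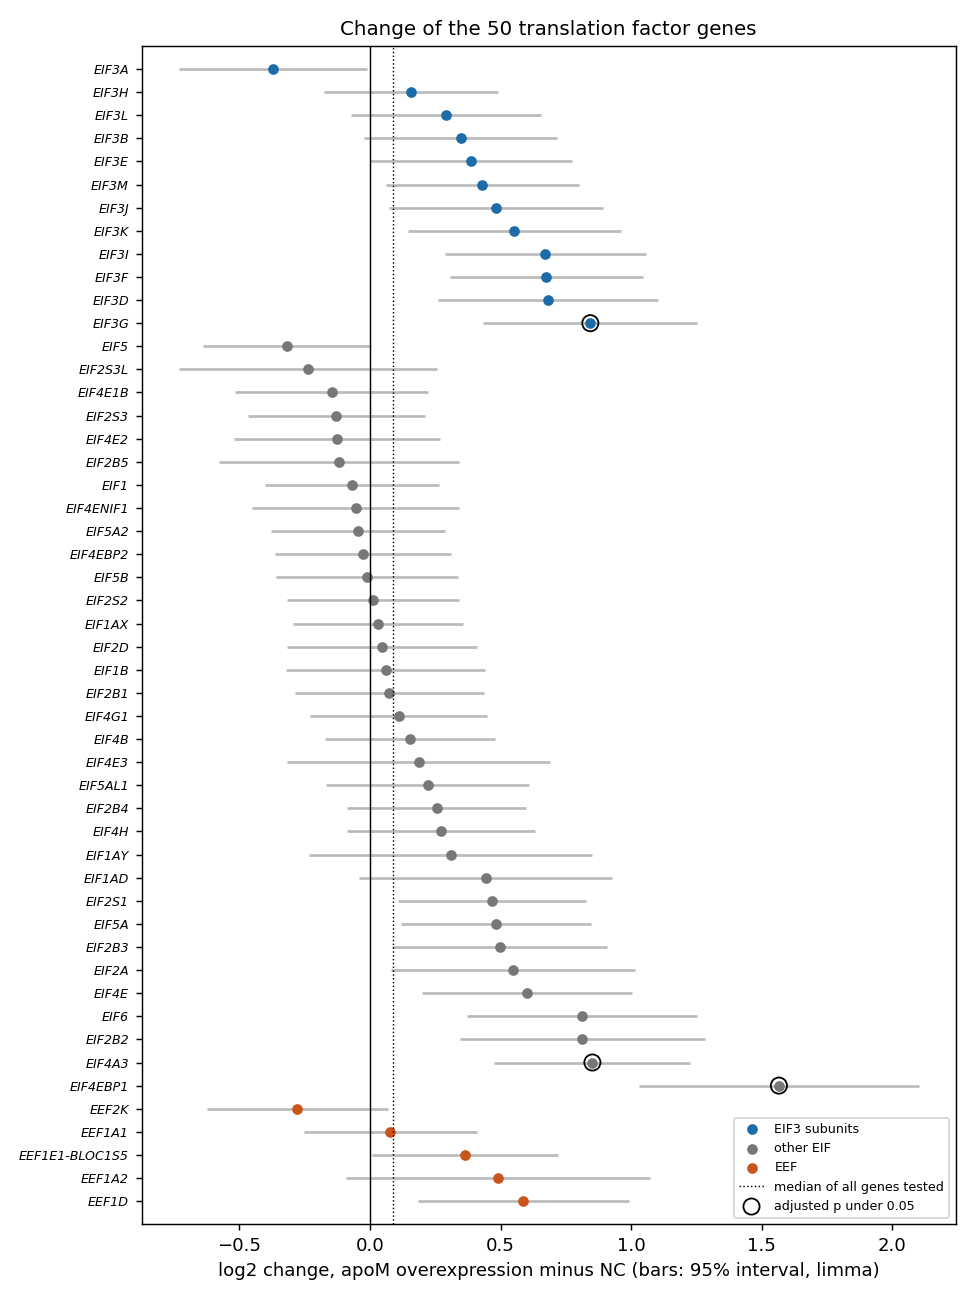
Log2 change (apoM overexpression minus NC) of each of the 50 genes, grouped by class, with bars for the 95% interval from limma; ringed points passed an adjusted p of 0.05. EIF4EBP1 stands apart at 1.57, 11 of 12 EIF3 subunits lie right of 0, and the dotted line marks the median of all genes tested, 0.090.

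The count of genes past the threshold depended on single arrays. It was 11 without NC replicate 3, where 5.98% of all genes rose. It was 1, EIF4EBP1, without apoM overexpression replicate 3, where 0.699% of all genes passed. It was 0 with either of the first 2 NC replicates or either of the first 2 apoM overexpression replicates left out, fits with fewer arrays in which 2 to 44 of all genes tested still passed and 12 to 15 of the 50 (24% to 30%) had an unadjusted p under 0.05 in limma, against 13.8% to 16.1% of all genes tested. NC replicate 3 lay above the mean of the other NC arrays in 42 of the 50 genes (84%), and in 59.4% of all genes tested; its part in the results was not tested. Without it, 28 of the 50 genes (56%) had groups that lay wholly higher, against 28.5% of all genes tested and 33.0% of the brighter protein-coding genes.

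EIF4EBP1 had the largest change of the 50 genes. It encodes 4E-BP1, which binds EIF4E and keeps it from the scaffold EIF4G until mTOR phosphorylates it. EIF4EBP1 read 12.10, 12.26 and 12.90 on the NC arrays and 14.26, 14.03 and 13.67 on the apoM overexpression arrays. All apoM arrays lay above all NC arrays, and NC replicate 3 was the highest of the controls. EIF4EBP1 rose 2.96-fold, from 12.42 ± 0.43 to 13.99 ± 0.30 (SD, n = 3), a log2 change of 1.57 (SE 0.24, limma adjusted p = 0.0223). With each array left out in turn the change ran 1.41 to 1.81 and the limma adjusted p from 0.00412 to 0.113; it missed the threshold without replicate 1 or 2 of either group. Its paralogue EIF4EBP2 was measured at 16.61 ± 0.083 (SD, n = 3) over the NC arrays and 16.59 ± 0.11 over the apoM arrays, a change of -0.026 with a 95% interval of -0.36 to 0.31, so that a change as large as that of EIF4EBP1 lay outside its interval. With quantile normalization the change of EIF4EBP2 was -0.29 and that of EIF4EBP1 was 1.43. The difference between these paralogues was not itself tested.

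**Figure D2:**
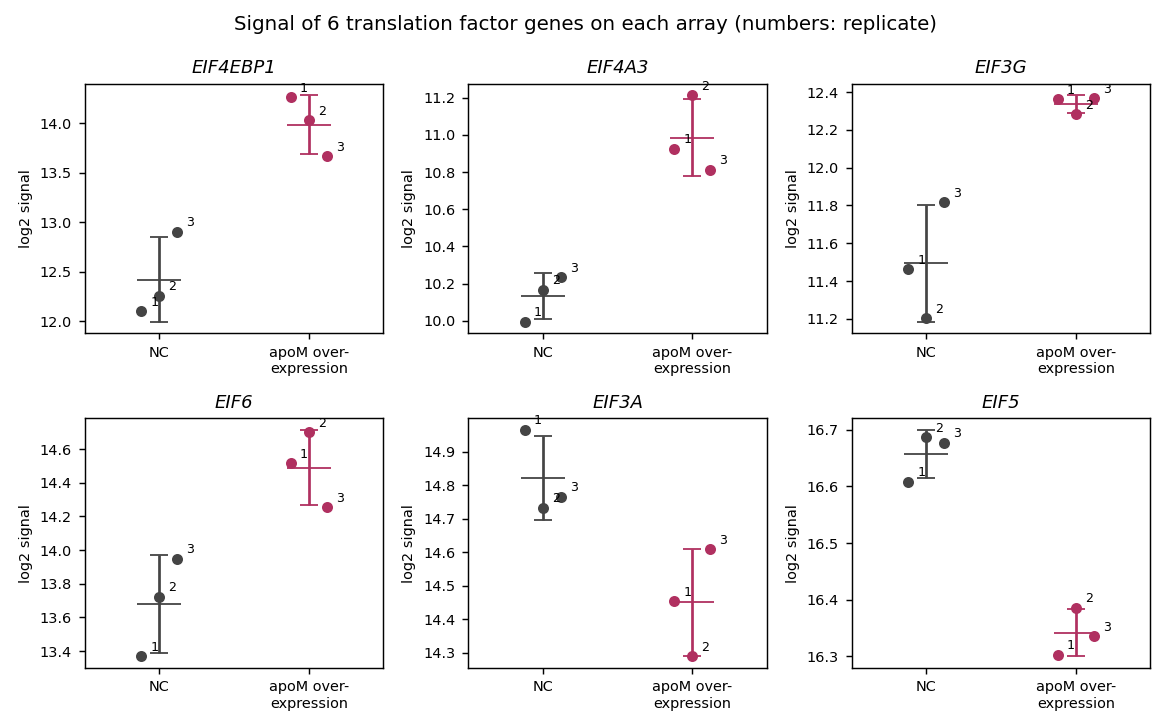
Log2 signal of 6 genes on each array, with the group mean as a horizontal line, the SD of 3 arrays as bars and the replicate number beside each point; each panel has its own axis, which does not start at 0. In all 6 genes the groups do not overlap: EIF4EBP1, EIF4A3, EIF3G and EIF6 are higher with apoM, and EIF3A and EIF5 are lower. EIF6, EIF3A and EIF5 did not pass the test (limma adjusted p = 0.0608, 0.247 and 0.270). Of the 50 genes, 23 lay wholly higher and 3 wholly lower, against 17.3% and 7.08% of all genes tested.

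Among the cap-binding proteins themselves, EIF4E, the one that recruits most mRNAs, read 11.79, 11.94 and 12.36 on the NC arrays and 12.66, 12.63 and 12.61 on the apoM overexpression arrays. The apoM arrays lay close together and above all controls. The change was 0.60 (SE 0.18) and missed the threshold (limma adjusted p = 0.104); without NC replicate 3 it passed at an adjusted p of 0.0283. The homologues EIF4E2, which represses cap-dependent translation, EIF4E3 and EIF4E1B had changes of -0.13, 0.19 and -0.15, with overlapping groups. EIF4ENIF1, the transporter that takes EIF4E into the nucleus and to P-bodies, had a change of -0.055. EIF4G1, the scaffold of the cap-binding complex, read 13.18, 12.99 and 12.98 on the NC arrays and 13.11, 13.10 and 13.27 on the apoM overexpression arrays. Its groups overlapped, and its change was 0.11 with a 95% interval of -0.23 to 0.45. The helicase cofactors EIF4B and EIF4H had changes of 0.15 and 0.27; both lay wholly higher with apoM but did not pass (limma adjusted p = 0.626 and 0.4). With quantile normalization the changes of EIF4B and EIF4G1 turned to -0.086 and -0.026, and that of EIF4H was 0.081.

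EIF4A3 is a DEAD-box helicase of the EIF4A family that serves in the exon junction complex, which marks spliced mRNA, and not in cap-dependent initiation. It read 9.995, 10.17 and 10.23 on the NC arrays and 10.93, 11.21 and 10.81 on the apoM overexpression arrays. No array of one group reached the range of the other. EIF4A3 rose 1.80-fold, from 10.13 ± 0.12 to 10.98 ± 0.21 (SD, n = 3), a log2 change of 0.85 (SE 0.17, limma adjusted p = 0.0395), and the adjusted p ran from 0.0252 to 0.135 with 1 array left out, missing the threshold in every such fit but the one without NC replicate 3. The promoters of EIF4A3 and EIF4E are shown in part because both hold the E-box CACGTG, the sequence bound by MYC and related proteins, which reads the same on both strands; the capitals mark it.
EIF4A3 (chr17:80147232-80147261, minus strand): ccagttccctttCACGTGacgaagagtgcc
EIF4E (chr4:98929341-98929370, minus strand): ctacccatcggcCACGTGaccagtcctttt
EIF4E (chr4:98929188-98929217, minus strand): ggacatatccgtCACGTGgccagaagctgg
The box of EIF4A3 begins 121 bases before the start site, and those of EIF4E begin 225 and 72 bases before it. The 300 bases around the start (250 before, 50 after) held CACGTG at 11 of the 53 start sites of translation factor genes (20.8%), against 7.26% of all start sites. The other genes with CACGTG were EIF3F, EIF3K, EIF2B3, EIF4H, EIF4B, EIF4G1, EIF1B, EIF5A2 and EEF2K. Their changes ran from 0.68 for EIF3F to -0.28 for EEF2K. The ETS core CCGGAAG, or its reverse complement CTTCCGG, was held by 12 of the 53 (22.6%), against 10.3% of all. Genes with either motif included EIF6 and EIF2B2 but also EIF5A2, EIF4EBP2 and EEF2K, whose changes lay between -0.28 and -0.026. The motifs were thus found in genes with higher and with lower values.

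EIF3 is the largest initiation factor, a complex that joins the small ribosomal subunit to mRNA and to the other factors. Its 12 measured subunits had a median change of 0.46, against 0.11 for the 33 other EIF genes and 0.36 for the 5 EEF genes, and 0.090 over all genes tested. The EEF value is that of the readthrough RNA EEF1E1-BLOC1S5, and over the 4 protein-coding EEF genes the median was 0.28. With quantile normalization these medians were 0.29, 0.037 and 0.39 beside 0.080, and with the trend on gene span removed (48 protein-coding genes of the 50) the EIF3, other EIF and EEF medians were 0.37, 0.028 and 0.13. Without NC replicate 3 the median of the other EIF genes was 0.19. Of the subunits 1 rose and none fell, where 1.70% and 0.357% of all genes did. The apoM arrays lay wholly higher for 9 of the 12 and wholly lower for 1, EIF3A, against 17.3% and 7.08% of all genes. Among the brighter protein-coding genes the shares were 19.9% and 11.3%. The subunits had a median level of 14.18, against 8.86 for those brighter genes and 5.32 for all genes. After subtracting the 6-array average of every gene, the medians of the subunits were -0.40, -0.31 and -0.049 on the NC arrays and 0.18, 0.33 and 0.18 with apoM. On NC replicate 3 the subunits therefore lay between the other controls and the apoM arrays. The other EIF genes spanned a narrower range, with medians from -0.14 to 0.075 on single arrays. The classes were not tested against each other.

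**Figure D3:**
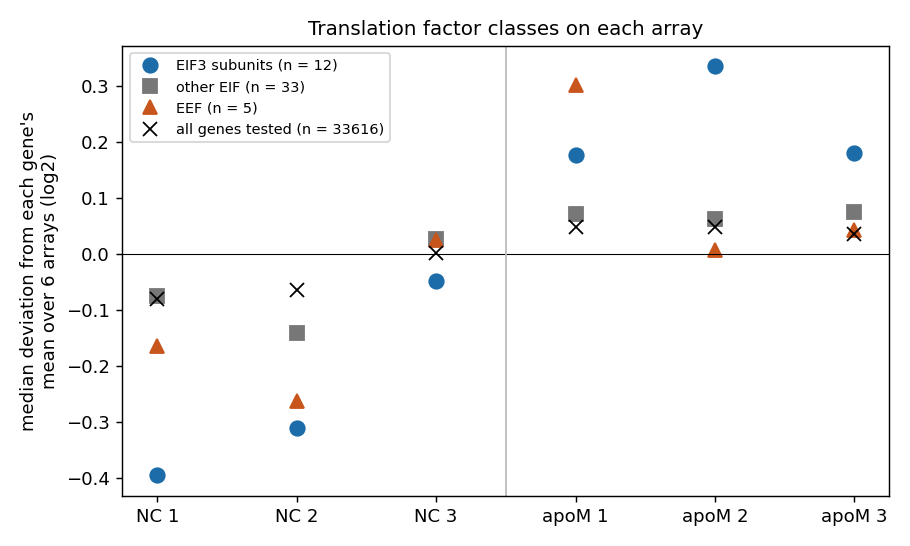
Median log2 deviation of the genes of each class from their own 6-array averages, plotted for each array; crosses show all genes tested. The EIF3 subunits run from -0.40 on NC replicate 1 to 0.33 on apoM overexpression replicate 2, and on NC replicate 3 they lie at -0.049.

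The subunits EIF3B, EIF3G and EIF3I form a module that contacts mRNA near the entry channel and is conserved in yeast. EIF3G, an RNA-binding subunit, read 11.46, 11.20 and 11.82 on the NC arrays and 12.36, 12.28 and 12.37 on the apoM overexpression arrays. Its apoM arrays were close together and above all controls. EIF3G rose 1.79-fold, a log2 change of 0.84 (SE 0.18, limma adjusted p = 0.0496), which is barely under the threshold. It missed the threshold with array medians subtracted, with the mean of a gene's features, with features that have a gene ID, over protein-coding genes alone and with the trend on gene span removed (adjusted p = 0.05001 to 0.0648), and without any single array other than NC replicate 3 (up to 0.159). EIF3I, a WD-repeat subunit, read 10.45, 10.55 and 10.88 on the NC arrays and 11.29, 11.44 and 11.16 on the apoM overexpression arrays. Its groups did not overlap, and its change was 0.67 (limma adjusted p = 0.0705). EIF3B, the scaffold of the module, had a change of 0.35, and its groups overlapped.

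The other subunits belong for the most part to the octamer that forms the body of mammalian EIF3. EIF3F, an MPN-domain subunit, read 13.22, 13.22 and 13.49 on the NC arrays and 14.02, 14.13 and 13.80 on the apoM overexpression arrays. The groups were apart, with a change of 0.68 (SE 0.17, limma adjusted p = 0.0621). EIF3F was also carried by 8 features without a mapped position, and 6 of its 9 features were higher with apoM, with changes from -0.16 to 0.88. With the mean of its 9 features the change of EIF3F was 0.27 (limma adjusted p = 0.356). EIF3K read 15.10, 15.56 and 15.53 on the NC arrays and 15.94, 16.13 and 15.78 on the apoM overexpression arrays. This subunit, one of those absent from budding yeast, also had groups that did not overlap, and a change of 0.55 (limma adjusted p = 0.134). EIF3M, EIF3E and EIF3L, further subunits of the octamer, had changes of 0.43, 0.39 and 0.29, each wholly higher with apoM and none past the threshold. EIF3H, the second MPN-domain subunit, had 0.16, with overlapping groups and a turn to -0.13 with quantile normalization. EIF3D, a subunit that can itself bind the cap, read 14.07, 14.14 and 14.63 on the NC arrays and 14.94, 15.11 and 14.83 on the apoM overexpression arrays. It lay wholly higher with apoM, by 0.68 (limma adjusted p = 0.0861). EIF3J, which is loosely bound and acts at the decoding centre, had a change of 0.48. With quantile normalization the changes were smaller for EIF3K (0.27), EIF3M (0.27), EIF3E (0.14), EIF3L (0.12) and EIF3J (0.30), and without NC replicate 1 that of EIF3E was 0.25.

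EIF3A, the largest subunit and the backbone of the complex, went the other way. It read 14.97, 14.73 and 14.77 on the NC arrays and 14.45, 14.29 and 14.61 on the apoM overexpression arrays. Every apoM array lay below every NC array, while 9 partner subunits lay wholly above. The change was -0.37 (SE 0.16) and did not pass (limma adjusted p = 0.247); its 95% interval, -0.73 to -0.011, did not overlap those of EIF3D, EIF3E, EIF3F, EIF3G, EIF3I, EIF3J, EIF3K or EIF3M. With 1 array left out its change ran from -0.45 to -0.29.

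Across the 12 subunits the change tended to be lower the longer the span of the gene, introns included, in the GRCh38.p14 gene table. The Spearman correlation was -0.89 over 12 genes measured on the same 6 arrays, against -0.14 over the 49 translation factor genes with a span and -0.35 over the 10839 brighter protein-coding genes. EIF3G, the shortest at 4.89 kb, had the highest change, and EIF3A at 47.1 kb, EIF3E at 47.5 kb and EIF3H at 124 kb were the longest. The changes of these long genes differed, at -0.37 for EIF3A, 0.39 for EIF3E and 0.16 for EIF3H. With the trend of all protein-coding genes on span removed from every array, the correlation among the subunits was -0.85 and their median change 0.37. Under the other processing alternatives it ran from -0.91 to -0.74. Gene span is not transcript length, and the part of RNA quality or labelling in this pattern was not tested.

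**Figure D4:**
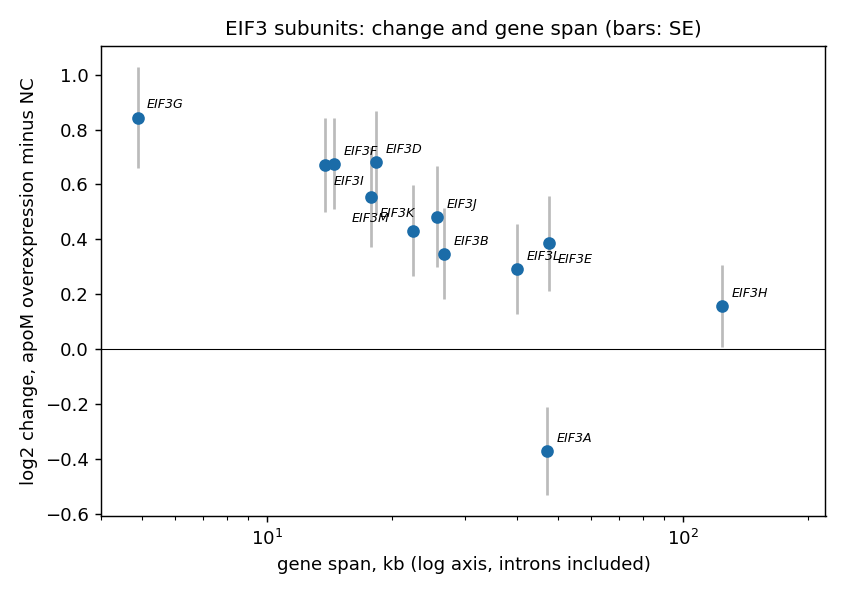
Log2 change (apoM overexpression minus NC, bars SE) of the 12 EIF3 subunits against the span of each gene in kb on a log axis. The change is 0.84 for EIF3G at 4.89 kb and 0.16 for EIF3H at 124 kb, and EIF3A at 47.1 kb lies lowest at -0.37.

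EIF2 carries the initiator tRNA and is recharged with GTP by the exchange factor EIF2B. EIF2S1, the alpha subunit whose phosphorylation blocks exchange, read 11.64, 11.51 and 11.78 on the NC arrays and 11.95, 12.12 and 12.26 on the apoM overexpression arrays. Its groups did not overlap; the change was 0.47 (limma adjusted p = 0.148). EIF2S2 and EIF2S3, the beta and gamma subunits, had changes of 0.012 and -0.13, with 95% intervals of -0.32 to 0.34 and -0.47 to 0.21. EIF2S3L, the platform's symbol for a retrocopy of the gamma subunit that RefSeq lists as EIF2S3B, read 4.61, 4.39 and 5.23 on the NC arrays and 4.62, 4.36 and 4.54 on the apoM overexpression arrays. Its NC replicate 3 was the highest of the 6 arrays and its groups overlapped. The change was -0.24, and it turned to 0.0090 without NC replicate 3; the probes of such copies may read one another.

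Of the EIF2B subunits, EIF2B2 (beta) read 10.32, 10.69 and 11.05 on the NC arrays and 11.30, 11.71 and 11.50 on the apoM overexpression arrays. All apoM arrays were above all controls, by 0.81 (SE 0.21, limma adjusted p = 0.0713). EIF2B3 (gamma) and EIF2B4 (delta) also lay wholly higher, by 0.50 and 0.26, without passing; with the span trend removed EIF2B4 had 0.090. EIF2B1 (alpha) and EIF2B5, the catalytic epsilon subunit, had changes of 0.075 and -0.12 with overlapping groups. EIF2A and EIF2D, which can deliver initiator tRNA without EIF2, had changes of 0.55 and 0.046, and EIF2A alone lay wholly higher (limma adjusted p = 0.189).

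The factors of start codon selection and subunit joining showed no gene past the threshold in limma, and none had an unadjusted p under 0.05. EIF5, which triggers GTP hydrolysis by EIF2 at the start codon, read 16.61, 16.69 and 16.68 on the NC arrays and 16.30, 16.39 and 16.34 on the apoM overexpression arrays. Both groups were tight, with SDs of 0.043 and 0.042, and every apoM array lay below every NC array. The change was -0.32 (SE 0.14, limma adjusted p = 0.27), and it ran from -0.34 to -0.30 with 1 array left out and was -0.57 with quantile normalization. EIF1, EIF1B and EIF1AX, which scan for the start codon with the small subunit, had changes of -0.070, 0.060 and 0.032. EIF1AY, the Y-linked copy of EIF1AX, had 0.31, and the 2 copies may share signal. EIF1AD, a protein with an EIF1A-like domain, had 0.44, and EIF5B, the GTPase of subunit joining, -0.011; their groups overlapped.

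EIF6 keeps the large ribosomal subunit from joining the small one too early and also serves in making that subunit. It read 13.37, 13.72 and 13.95 on the NC arrays and 14.52, 14.70 and 14.25 on the apoM overexpression arrays. The groups were apart, and NC replicate 1 was the lowest array. The change was 0.81 (SE 0.20) and just missed the threshold (limma adjusted p = 0.0608). EIF6 passed with trend and robust settings of eBayes, with array weights and among genes above the median level (adjusted p = 0.0343 to 0.0394). In those fits 3.72%, 4.99% and 10.3% of the genes tested passed, against 2.06% in the main fit. It missed under the other alternatives that kept all 6 arrays (limma adjusted p = 0.0583 to 0.107). Dropping NC replicate 3 also brought EIF6 under the threshold (0.0287), and dropping any other single array did not (0.0836 to 0.198).

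EIF5A, the one protein family that carries the amino acid hypusine, helps ribosomes through stretches such as runs of proline. EIF5A read 15.26, 15.23 and 15.54 on the NC arrays and 15.91, 15.89 and 15.68 on the apoM overexpression arrays. It lay wholly higher with apoM, by 0.48 (SE 0.16, limma adjusted p = 0.139), and by 0.23 with quantile normalization. Its paralogue EIF5A2 had a change of -0.047 with a 95% interval of -0.38 to 0.29, and EIF5AL1, a near-identical copy of EIF5A, 0.22. The groups of both overlapped.

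The 5 EEF genes comprise 3 elongation factor genes, the kinase EEF2K and the readthrough RNA EEF1E1-BLOC1S5. None passed the threshold in limma. EEF1D and the readthrough RNA had an unadjusted p under 0.05, both higher, as did 14.3% of all genes. EEF1A1, which brings aminoacyl-tRNA to the ribosome and whose mRNA opens with the tract CTTTTTC shown above, read 19.51, 19.70 and 19.70 on the NC arrays and 19.71, 19.73 and 19.70 on the apoM overexpression arrays. These values lay 0.20 to 0.42 below the highest value of their array, close to the upper end of the scale, where differences may be compressed. The change was 0.078 (95% interval -0.25 to 0.41), and it turned to -0.091 with the span trend removed. EEF1A2, the form of muscle and neurons, read 5.43, 4.99 and 5.88 on the NC arrays and 6.37, 5.68 and 5.72 on the apoM overexpression arrays. Its groups overlapped and its spread was wide, with a change of 0.49 (SE 0.26, limma adjusted p = 0.344) that was 0.27 with NC replicate 2 left out and 0.26 with the first apoM array left out. EEF1D, a subunit of the exchange factor that recharges EEF1A, read 17.57, 17.91 and 18.17 on the NC arrays and 18.48, 18.52 and 18.41 on the apoM overexpression arrays. All apoM arrays lay above all controls, by 0.59 (SE 0.18, limma adjusted p = 0.113), and the change was 0.39 with quantile normalization. EEF2K, the kinase that inhibits EEF2, read 9.22, 8.99 and 8.98 on the NC arrays and 8.87, 8.81 and 8.67 on the apoM overexpression arrays. Each apoM array was below each NC array, and the change was -0.28 (limma adjusted p = 0.371). EEF1E1-BLOC1S5, a readthrough RNA that starts at the gene of an auxiliary protein of the tRNA synthetase complex, had 0.36 and lay wholly higher.

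Of the genes that act with these factors, 5 lists were examined, and none of their 76 measured genes passed the threshold in limma, while 13 had an unadjusted p under 0.05 higher and 4 lower (17.1% and 5.26%), near the 14.3% and 4.85% of all genes. Over the 76 genes, 14 lay wholly higher and 9 wholly lower (18.4% and 11.8%), beside 17.3% and 7.08% of all genes and 19.9% and 11.3% of the brighter protein-coding genes. Their median change was 0.11, and that of all genes 0.090. Cytosolic aminoacyl-tRNA synthetases and their AIMP partners, which charge tRNA, had a median change of 0.32 over 18 genes, and 6 of them lay wholly higher (33.3%, beside 17.3% of all genes) and none wholly lower (7.08% of all genes did). RARS1, the enzyme for arginine, was measured at 11.20 ± 0.33 (SD, n = 3) over the NC arrays and 11.92 ± 0.29 over the apoM arrays, and SARS1, IARS1 and KARS1, the enzymes for serine, isoleucine and lysine, had changes of 0.45, 0.45 and 0.43. Termination, recycling and mRNA-bound factors had a median of 0.071 over 18 genes, with 4 wholly higher (22.2%) and 3 wholly lower (16.7%), beside the same 17.3% and 7.08%. MCTS1, which works with DENR in recycling and re-initiation, came nearest to the threshold, with a change of 1.04 (limma adjusted p = 0.0528). PAIP1, a partner of poly(A)-binding protein, had 0.54, BZW2, which is related to EIF5, 0.39, and LARP4, which binds poly(A) tails, -0.43.

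Kinases, phosphatases and mTOR components, which set the phosphorylation of EIF2S1 and of the EIF4E-binding proteins, had a median change of 0.055 over 19 genes, with 3 wholly higher (15.8%) and 4 wholly lower (21.1%), beside 17.3% and 7.08% of all genes. MLST8, a subunit of both mTOR complexes, had a change of 0.71 (limma adjusted p = 0.0578). The ribosomal S6 kinases lay on opposite sides: RPS6KB1 was measured at 13.28 ± 0.14 (SD, n = 3) over the NC arrays and 12.72 ± 0.15 over the apoM arrays and RPS6KB2 at 11.19 ± 0.054 (SD, n = 3) over the NC arrays and 11.67 ± 0.11 over the apoM arrays. Neither passed (limma adjusted p = 0.0931 and 0.116). PPP1R15B, which directs the phosphatase of EIF2S1, had -0.51. Enzymes that modify elongation factors had a median of 0.095 over 13 genes. DPH3, of the diphthamide pathway that modifies EEF2, had 0.69 (limma adjusted p = 0.0885). DHPS, which carries out the first step of making hypusine on EIF5A, had 0.44, and DPH5 and DPH7 had 0.26 and -0.27. The groups of DHPS and DPH5 overlapped. Mitochondrial translation factors had a median of 0.16 over 8 genes, none of them with groups apart; MTIF2 and MTIF3, the initiation factors of that system, had 0.39 and 0.38.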

How the data were processed

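Total RNA was biotin-labelled and read on 6 Affymetrix arrays, 3 per group, per the labels' protocols. The authors' deposited log2 values (the scale was inferred from their range) were made in Affymetrix Expression Console, according to per-sample notes of the submitters. Which version, normalization method and build they used is not given in the sources used here, and the table was used as deposited. Of 135750 features, 36176 carry 1 symbol in the platform annotation, 1119 several and 98455 are unnamed here; symbols were updated by gene ID for 25516. The brightest feature per gene gave 33616 genes. Signal over background was not analysed here. Precision is limited by the 3 arrays per group.

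Differences (apoM overexpression minus NC, two-sided) were tested with limma 3.58.1 in R 4.3.3, with lmFit and eBayes and Benjamini-Hochberg adjustment over all genes; 95% intervals come from the same fit. Groups of 3 and 3 were called apart when no array overlapped. The procedure was tested on simulated data with independent noise for each gene and array. That test does not cover differences shared by many genes of an array, such as those of NC replicate 3. Tables and figures used Python 3.11.15 and matplotlib 3.10.9. Promoter sequences are from RefSeq, GRCh38.p14. The alternatives are in the closing section. The span trend was a lowess fit with span 0.3.

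The members, lists and alternatives were chosen with earlier results of these data known. By the rule for naming genes, every member may be named; values on single arrays are given for the members past the threshold, the 12 with the smallest p, the 4 lowest changes and 8 core factors, and other genes are up to 4 per list with the smallest p. METTL13 and EEF1AKNMT are names of 1 gene.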

Additional observations from a re-analysis of the deposited data

How the results depend on the processing

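EIF4EBP1 and EIF4A3 passed under the 9 alternatives other than the replicate block that kept all 6 arrays, and missed the threshold with the replicate number as a block, as did EIF3G (limma adjusted p = 0.0628, 0.0769 and 0.0803). The count of 3 past the threshold became 8 among genes above the median level, 6 with trend and robust settings and 8 with array weights. In those fits 10.3%, 3.72% and 4.99% of the genes tested passed, against 2.06% without these changes. The count became 2 with array medians subtracted, the mean of a gene's features, features that have a gene ID, protein-coding genes alone or the span trend removed. Between 1.11% and 2.08% of the genes tested passed there. The count was 0 with the replicate block, where 0.149% of all genes passed. With 1 array left out it was 0 to 11, where 0.00595% to 7.01% of all genes passed. The count at an unadjusted p under 0.05 in limma, 19, ran from 12 to 19 with 1 array left out. The share of all genes at that level ran from 13.8% to 22.3%. Over all genes tested the count of 691 became 1730 among genes above the median level, 363 with features that have a gene ID, 195 over protein-coding genes, 241 with the span trend removed, 1251 with trend and robust settings, 1679 with array weights, 50 with the replicate block and 2 to 2358 with 1 array left out. The fits tested 16808 genes above the median level, 24543 with a gene ID and 17575 protein-coding genes, the last also with the span trend removed. All other fits tested 33616. Same-numbered arrays of the groups deviated from their group means with correlations of -0.073, 0.033 and -0.069. Between differently numbered arrays the correlations ran from -0.051 to 0.12. With 3 arrays a group these values cannot decide whether the numbers pair the arrays, and the labels do not say.

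With quantile normalization, which left the median of all genes at 0.080, the medians were 0.16 for all translation factor genes, 0.29 for EIF3 and 0.037 for other EIF. With the span trend removed they were 0.19, 0.028 for other EIF and 0.13 for EEF. With 1 array left out they ran from 0.21 to 0.30 for all, 0.40 to 0.56 for EIF3, 0.061 to 0.19 for other EIF and 0.26 to 0.45 for EEF.

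Directions turned only in genes far from the threshold. With quantile normalization EIF1AX had -0.078, EIF1B -0.0080, EIF2D -0.011, EIF2S2 -0.19, EIF3H -0.13, EIF4B -0.086, EIF4ENIF1 0.037 and EIF4G1 -0.026. With array medians subtracted EIF1AX had -0.0027 and EIF2S2 -0.023, and with the mean of its features EIF2S2 had -0.087. With the span trend removed EEF1A1 had -0.091, EIF1AX -0.085, EIF1B -0.10, EIF2B1 -0.058 and EIF2S2 -0.081, and with array weights EIF5B had 0.022. With 1 array left out EIF1B ran from -0.040 to 0.19, EIF2B5 from -0.24 to 0.10, EIF2D from -0.045 to 0.12, EIF2S2 from -0.040 to 0.040, EIF2S3L from -0.41 to 0.0090, EIF4EBP2 from -0.072 to 0.034, EIF4ENIF1 from -0.16 to 0.060 and EIF5B from -0.090 to 0.044. The causes were not tested. With 3 arrays a group and no measure of signal over background, changes of dim genes such as EIF5AL1 and EIF2S3L have the least support.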
